A study of Mus musculus with 69 samples.

Results

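Succinate dehydrogenase (complex II), the cytochrome bc1 complex (complex III) and ATP synthase are the parts of oxidative phosphorylation that stand on either side of the enzyme cyanide blocks. The genes described here are those of the array annotation named Sdha, Sdhb, Sdhc, Sdhd or Cyc1, or whose symbol starts with Uqcr, Atp5 or Sdhaf, taken by probe sets that carry a single gene symbol. They are 33 genes on 50 probe sets, of 17097 genes on 45037 probe sets in all. Complex II has 4 of these genes, its assembly factors 4, complex III 8 and ATP synthase 17. Signal was high enough for testing in 45 of the 50 probe sets, with at least 1 for each of the 33 genes. The other 5, which are 3 of Uqcrq and 2 of Sdha, stayed between mean log2 signals of 2.66 and 2.99. The symbol rule itself holds no measured value, but it was chosen with earlier results of these data known. Of the 33 genes 11 had several tested probe sets, and probe sets of a gene are not independent measurements of it.

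The hearts came from adult male CD-1 mice of 20 to 35 g that were not anesthetized. In the injection arm, potassium cyanide (KCN) was given under the skin at 8.0 mg/kg and the controls received saline of the same volume, with hearts taken at 1, 2, 4, 8 and 24 h. In the inhalation arm, hydrogen cyanide (HCN) was breathed nose-only at 327 ppm and the controls breathed air, with hearts taken at 1, 2, 4 and 24 h. There were 4 arrays in 15 of the 18 groups and 3 in the saline groups of 2 h and 4 h and the KCN group of 4 h, and the labels call the arrays of a group biological replicates.

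Complex II oxidises succinate in the citric acid cycle and passes the electrons to ubiquinone without pumping protons. Complex III takes electrons from ubiquinol, hands them to cytochrome c and pumps protons, and cytochrome c oxidase (complex IV) passes them on to oxygen. Cyanide binds complex IV, so electrons back up in complex III and the proton gradient that ATP synthase runs on is lost. ATP synthase can then run backwards and consume ATP. Heart muscle is among the tissues richest in these complexes.

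All values are log2 signals deposited by the authors, and a change is the cyanide mean minus the control mean on that scale ± SE from limma. "Rose" and "fell" are used for changes at a Benjamini-Hochberg adjusted p of 0.05 or less over all 26755 probe sets tested, and such changes are called. The 69 arrays correlated with each other at 0.968 to 0.995, and their number limits the precision. The ventricular muscle genes of a marker list (7 measured, among them Myl2, Actc1 and Tnni3) had group means of 10.79 to 13.69. In bulk heart RNA, fewer cells of a type and less RNA per cell cannot be told apart. The actin ratio sets, on the log2 scale, the control signal at the 3' end of actin against that at its 5' end. Whether it reflects RNA integrity here was not tested. It had group means of 0.386 to 0.979 in 17 groups and of 1.22 at HCN 2 h, and it is given beside each comparison it moved with.

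Before the values, the upstream sequences of 5 members named in the results are shown. The nuclear factors NRF1, GABPA, the estrogen-related receptors and YY1 are known to drive genes of oxidative phosphorylation. RefSeq windows on GRCm38.p6 were matched by gene ID for 26 of the 33 genes, and the 250 bases before each annotated start were searched on both strands. Atp5a1, Atp5mpl, Cyc1, Sdhc, Uqcrb, Uqcrc2 and Uqcrq were not matched. The NRF1 core CGCANGCG was found in 10 of the 26 genes (38.5%) and in 7.65% of all 27025 genes with a window. The GABPA core CCGGAAG was found in 8 of the 26 (30.8%) and in 7.83% of all. The estrogen-related receptor motif TCAAGGTCA was found in 1 (3.85%, against 0.422% of all) and the YY1 motif AAGATGGCG in 1 (3.85%, against 0.71%). No matches of different motifs overlapped in these windows, and 11 of the 26 genes held none of the 4. The letters of the motifs were settled after such counts had been seen, and a match describes the sequence only.

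The windows run 5′ to 3′ on the strand of the gene up to the base before its start, in lower case with the motif matches in capitals. Sdhd, a membrane anchor of complex II, and Atp5l, subunit g of ATP synthase, both hold the NRF1 and the GABPA core, and changed in opposite directions after HCN at 2 h. In Sdhd (chr9:50603850-50604099, minus strand) the NRF1 core begins 78 bases and the GABPA core 46 bases before the start.
Sdhd: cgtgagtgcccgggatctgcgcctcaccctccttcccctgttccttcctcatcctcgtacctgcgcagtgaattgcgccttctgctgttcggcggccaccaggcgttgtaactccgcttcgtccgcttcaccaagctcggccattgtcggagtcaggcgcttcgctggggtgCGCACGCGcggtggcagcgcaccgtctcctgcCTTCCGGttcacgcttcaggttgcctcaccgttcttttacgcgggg
In Atp5l (chr9:44920743-44920992, minus strand) the NRF1 core begins 241 and the GABPA core 212 bases before the start.
Atp5l: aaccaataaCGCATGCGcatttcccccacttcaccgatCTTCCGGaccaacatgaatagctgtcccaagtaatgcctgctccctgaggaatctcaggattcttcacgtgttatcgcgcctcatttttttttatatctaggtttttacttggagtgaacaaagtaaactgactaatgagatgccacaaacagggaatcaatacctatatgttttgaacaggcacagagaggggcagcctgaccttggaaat
Atp5j, which encodes coupling factor 6 of the peripheral stalk, went up after KCN and down after HCN at 24 h, in calls that several alternative fits lost. RefSeq gives it 2 windows, and the other one holds none of the 4 motifs. The window shown (chr16:84834977-84835226, minus strand) holds the NRF1 core at 147, the YY1 motif at 88 and the GABPA core at 61 bases before the start.
Atp5j: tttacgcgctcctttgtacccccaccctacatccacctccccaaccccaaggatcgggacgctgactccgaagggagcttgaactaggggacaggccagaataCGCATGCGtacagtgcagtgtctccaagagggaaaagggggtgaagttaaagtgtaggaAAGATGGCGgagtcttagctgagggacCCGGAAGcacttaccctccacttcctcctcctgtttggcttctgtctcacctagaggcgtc
Atp5g3, a gene for the membrane ring subunit c, is the member that holds the estrogen-related receptor motif, 52 bases before its start (chr2:73911327-73911576, minus strand).
Atp5g3: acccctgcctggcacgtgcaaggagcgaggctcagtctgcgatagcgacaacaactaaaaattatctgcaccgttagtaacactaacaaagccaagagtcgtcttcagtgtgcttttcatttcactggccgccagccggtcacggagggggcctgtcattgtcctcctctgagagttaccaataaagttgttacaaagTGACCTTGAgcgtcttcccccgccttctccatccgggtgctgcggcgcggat
Atp5o, which encodes the subunit OSCP that ties the stalk to the catalytic head, holds none of the 4 motifs (chr16:91931631-91931880, minus strand). The dimmer of its probe sets had the largest rise of the members.
Atp5o: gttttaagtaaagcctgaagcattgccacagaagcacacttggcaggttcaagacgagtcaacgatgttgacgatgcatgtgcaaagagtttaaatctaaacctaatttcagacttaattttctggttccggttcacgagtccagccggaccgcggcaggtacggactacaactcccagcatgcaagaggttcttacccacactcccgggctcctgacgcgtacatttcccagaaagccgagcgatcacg

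Few of these probe sets were called at 1 to 8 h after KCN and at 1 and 4 h after HCN, and more at KCN 24 h and HCN 2 h. Over the 9 comparisons of a cyanide group with its control there were 37 calls, 14 higher and 23 lower. The 37 calls are 9.14% of the 405 tests of members, near the 8.32% of all tests and the 10.3% of those of bright probe sets (mean log2 signal above 11). They fell on 27 of the 45 probe sets and 21 of the 33 genes. The share of all probe sets called at least once is not given here, so these 2 counts have no background. Atp5c1 is among the 21 only by a dim probe set of mean log2 signal 3.41. Only 2 of the 37, Atp5o and Sdhd at HCN 2 h, were larger than 1.5-fold, and 14 were under 0.2 on the log2 scale. In 29 of the 37 (78.4%) the cyanide and control arrays did not overlap, near the 76.5% of all calls on any probe set. The 12 genes with no call in any comparison were Cyc1, Uqcrb, Uqcrfs1 and Uqcrq of complex III, Sdhaf1, Sdhaf3 and Sdhaf4, and Atp5b, Atp5e, Atp5g1, Atp5md and Atp5pb of ATP synthase.

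After KCN at 1 h, 2 of the 45 probe sets were called (4.44%), both lower, where 4.09% of all probe sets tested were called, 1.57% higher and 2.53% lower. At 2 h it was 3 (6.67%), all lower, against 6.59% of all, 3.3% higher and 3.3% lower. At 4 h it was 1 (2.22%), lower, against 2.26%, 1.21% higher and 1.05% lower. At 8 h it was 1 (2.22%), lower, against 0.336%, 0.138% higher and 0.198% lower. The members' shares at 1, 2 and 4 h are near those of all probe sets. At 24 h, 7 were higher and 3 lower (22.2%), against 11.9% of all, 6.79% higher and 5.14% lower. Bright probe sets were called more often there: of the 631 tested with a mean log2 signal above 11 it was 20.9%, and of the 34 members that bright 26.5%.

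After HCN at 1 h, 1 probe set was called (2.22%), lower, against 2.68% of all, 1.38% higher and 1.3% lower. At 2 h, 5 were higher and 10 lower (33.3%), against 25.3% of all, 8.8% higher and 16.5% lower. Among the bright probe sets that comparison called 38.7%, and 35.3% of the bright members. At 4 h 0 of 45 were called by limma, where 7.35% of all were, 2.87% higher and 4.48% lower. An unadjusted p under 0.05 was found for 1 of the 45, for 5279 of all 26755 and for 40 of the 631 bright probe sets. Complex I and complex IV had 0 calls by limma there too, with 5 of 72 and 1 of 28 probe sets at an unadjusted p under 0.05, and 1.58% of the bright probe sets were called. At 24 h, 2 were higher and 2 lower (8.89%), against 14.3% of all, 5.08% higher and 9.25% lower. The median change of the 45 probe sets lay between -0.09 at HCN 2 h and 0.01 at KCN 24 h.

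**Figure D1:**
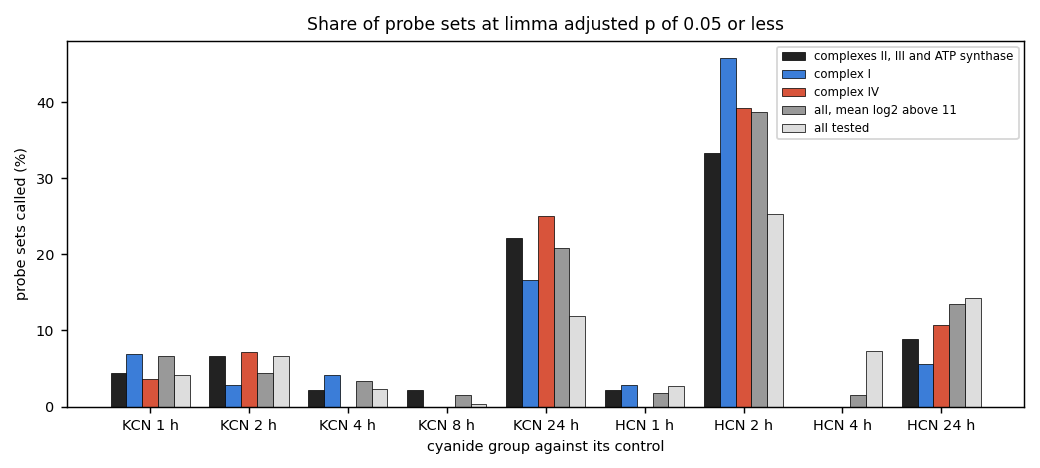
Share of probe sets called (percent of those tested, limma adjusted p of 0.05 or less) in each comparison, for the 45 probe sets of complexes II, III and ATP synthase, 72 of complex I, 28 of complex IV, the 631 brightest and all 26755. The members' bars are tallest at HCN 2 h (33.3%) and KCN 24 h (22.2%), where the bars of the bright probe sets reach 38.7% and 20.9%.

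**Figure D2:**
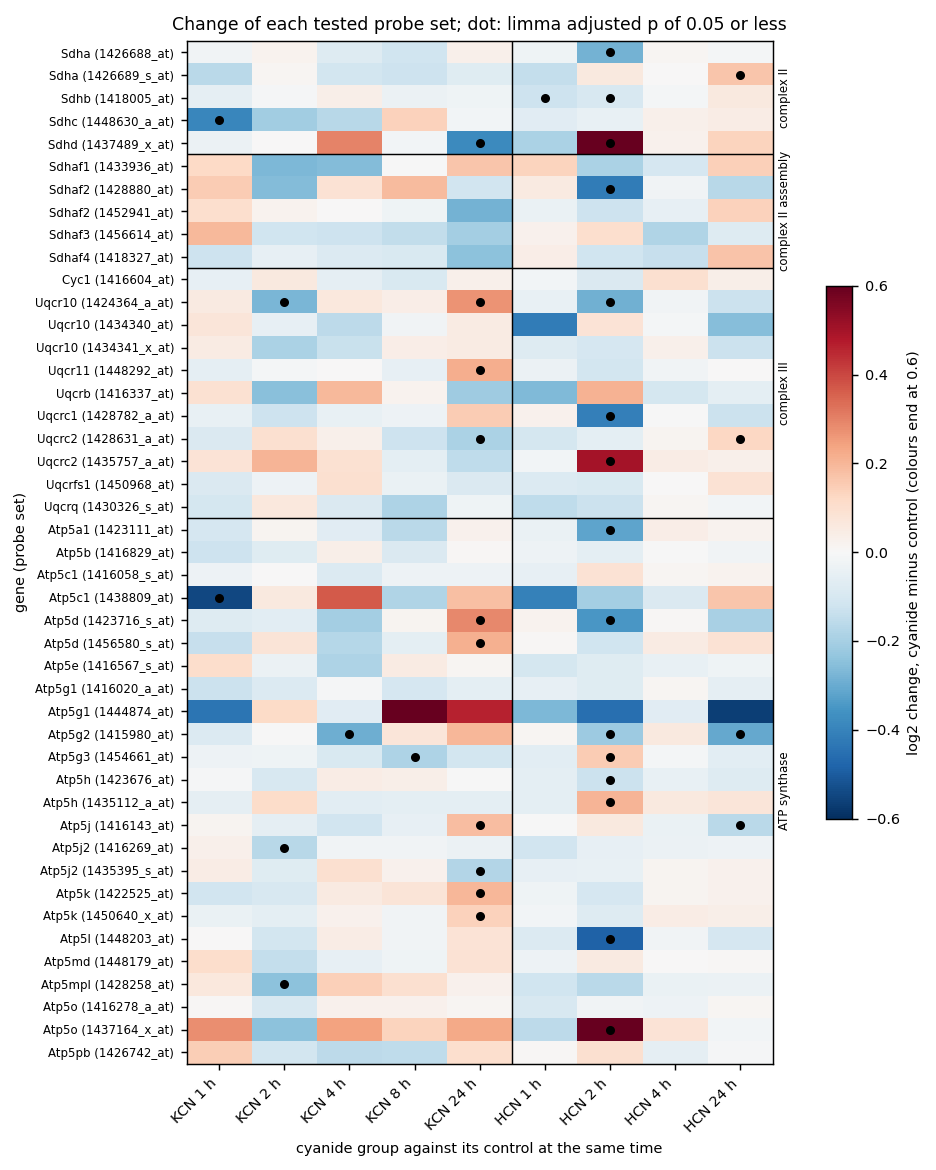
Log2 change (cyanide minus control at the same time) of each of the 45 tested probe sets in the 9 comparisons, red higher and blue lower, with a black dot where the change was called. The HCN 2 h column holds 15 dots and the KCN 24 h column 10, while the HCN 4 h column is nearly white and holds 0.

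In complex II, both membrane anchors and both catalytic subunits were called in at least 1 comparison, Sdhc first after KCN and Sdhb first after HCN, each at 1 h. Sdhc, which encodes a heme-binding membrane anchor of complex II, had log2 signals of 11.07, 10.95, 11.15 and 11.19 in the KCN 1 h arrays and 11.54, 11.51, 11.42 and 11.45 in saline 1 h. All 4 KCN arrays lay below all 4 saline arrays. Sdhc fell by 0.39 ± 0.08 (adjusted p = 0.00173), and the call held in each of the 15 alternatives of processing and of arrays left out. Its later changes after KCN, which were -0.21, -0.17, 0.14 and -0.02 at 2, 4, 8 and 24 h, were not called. Over the 5 times Sdhc was lower by 0.13 ± 0.04 (adjusted p = 0.0205), a call lost when the fit held the arrays of that comparison alone. In the inhalation arm its changes ran from -0.07 to 0.04 with no call. RNA of other tissue differed between the same groups. Marker lists are given by the log2 of their summed unlogged signals, to which the brightest genes contribute most. For 5 lung and airway markers it was 12.16 to 12.91 in KCN 1 h and 5.14 to 5.32 in saline 1 h, with Scgb1a1 and Bpifa1 called higher. For 5 fat markers it was 9.97 to 11.66 against 8.82 to 9.75. The actin ratio was 0.480 in KCN 1 h and 0.841 in saline 1 h, while the same ratio for Gapdh was 0.038 and 0.007. The part of these in the Sdhc result was not tested, apart from the actin ratio, with which as a covariate the fall was 0.40 and kept its call.

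Sdhd, the other membrane anchor, moved in opposite directions in 2 comparisons. In the HCN 2 h arrays its log2 signals were 8.57, 8.65, 8.33 and 8.62, against 7.88, 7.89, 7.96 and 7.83 in air. Each HCN array lay above each air array, and Sdhd rose by 0.65 ± 0.11 (adjusted p = 1.71e-05), a fold of 1.57. After KCN at 24 h the signals were 7.57, 7.89, 7.52 and 7.83, against 8.23, 8.19, 8.05 and 7.86 in saline. Those groups overlap, and Sdhd fell by 0.38 ± 0.11 (adjusted p = 0.0178). The fall lost its call without saline array 1 (-0.33), saline array 2 (-0.35), KCN array 1 (-0.34) or KCN array 3 (-0.32). The only probe set of Sdhd ends in _x_at, the suffix Affymetrix gives to sets with probes that can also bind other transcripts, so signal of another transcript cannot be told apart from that of Sdhd.

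The catalytic subunits of complex II moved less. Sdhb, the iron-sulfur subunit, had 12.78, 12.79, 12.87 and 12.82 at HCN 1 h against 12.96, 12.99, 12.93 and 12.90 in air, with no overlap, and fell by 0.13 ± 0.03 (adjusted p = 0.0206). At HCN 2 h it fell by 0.10 ± 0.03 (adjusted p = 0.024). The first is a fall of 8.36%. The first call was lost without air array 1 (-0.12) or 2 (-0.11), without HCN array 1 (-0.11) or 2 (-0.12), and under quantile normalization (-0.09). The second was lost without air array 3 (-0.09) or 4 (-0.08) or HCN array 1 (-0.09) or 3 (-0.09). Sdha, the flavoprotein that oxidises succinate, was measured by 2 bright probe sets that differed. At HCN 2 h the set of higher mean (1426688_PM_at) fell by 0.28 ± 0.06 (adjusted p = 0.000275), from 11.97, 12.08, 12.19 and 12.03 in air to 11.73, 11.70, 11.92 and 11.79, while the other (1426689_PM_s_at) had a change of 0.06. At HCN 24 h the second rose by 0.17 ± 0.05 (adjusted p = 0.0211) and the first had -0.01. That rise lost its call without air array 2 (0.16) or 3 (0.16) or HCN array 1 (0.15) or 3 (0.14).

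The assembly factors of complex II insert its flavin and iron-sulfur groups and help join its subunits. Of their 5 probe sets 1 was called in any comparison. Sdhaf2, the factor needed to attach the flavin to Sdha, fell by 0.42 ± 0.09 at HCN 2 h (adjusted p = 0.000379), from 9.62, 9.61, 9.86 and 9.57 in air to 9.20, 9.25, 9.17 and 9.36. All 4 HCN arrays lay below all 4 air arrays. Its other probe set, 1452941_PM_at, had -0.13. Sdhaf1 and Sdhaf3, which serve the iron-sulfur subunit, and Sdhaf4, which helps Sdha join Sdhb, ranged over the comparisons from -0.27 to 0.16, from -0.20 to 0.19 and from -0.24 to 0.17. The intervals of these genes were wider than those of the subunits: at KCN 1 h the median 95% half-width of the 5 assembly probe sets was 0.211, against 0.119 for the 5 of complex II.

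**Figure D3:**
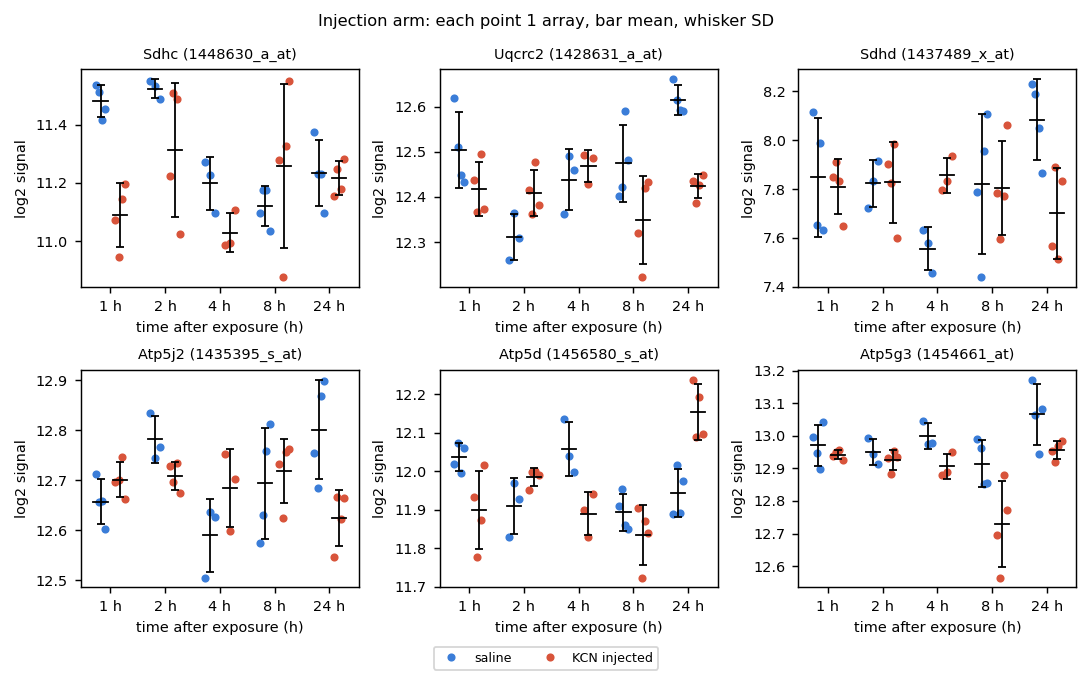
Log2 signal of 6 probe sets in each array of the injection arm, by hours after exposure, with saline in blue and KCN in red, the bar at the group mean and the whisker at the SD. Sdhc in KCN 1 h (10.95 to 11.19) lies wholly below saline 1 h (11.42 to 11.54), and at 24 h Uqcrc2 and Atp5j2 lie below their controls and Atp5d above.

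In complex III, Cyc1 and Uqcrfs1, the members that encode electron-carrying subunits, gave no call in any of the 9 comparisons. Cytochrome b is not among the members. Cyc1, which encodes cytochrome c1, had changes from -0.09 at KCN 8 h to 0.09 at HCN 4 h. Uqcrfs1, which encodes the Rieske iron-sulfur protein, had -0.09 at HCN 2 h to 0.10 at KCN 4 h. Both are bright, with mean log2 signals of 12.56 and 12.12. The widest ends of their 95% intervals over the 9 comparisons were -0.17 and 0.18 for Cyc1 and -0.17 and 0.19 for Uqcrfs1.

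The 2 core proteins, large subunits on the matrix side of complex III that hold it together, gave 4 of its 8 calls. Uqcrc1 had 12.29, 11.84, 12.60 and 12.57 at HCN 2 h against 12.68, 12.75, 12.85 and 12.67 in air, and fell by 0.41 ± 0.07 (adjusted p = 1.75e-05). Each HCN array lay below each air array, and array 2 lay well below the other 3. Without it the fall was 0.25 and still called. Uqcrc2 was measured by 2 probe sets, both bright. The one of higher mean, 1428631_PM_a_at, fell after KCN at 24 h by 0.19 ± 0.04 (adjusted p = 0.0026), from 12.66, 12.61, 12.59 and 12.59 in saline to 12.43, 12.39, 12.43 and 12.45, with no overlap. It rose after HCN at 24 h by 0.13 ± 0.04 (adjusted p = 0.0471), from 12.54, 12.45, 12.43 and 12.53 in air to 12.62, 12.62, 12.65 and 12.57. The fall held in each of 15 alternatives. The rise lost its call without air array 2 (0.11) or 3 (0.11), or HCN array 1 (0.12), 2 (0.12) or 3 (0.11). The second set, 1435757_PM_a_at, rose at HCN 2 h by 0.50 ± 0.10 (adjusted p = 9.96e-05), from 12.22, 12.19, 12.22 and 12.13 in air to 12.71, 12.79, 12.55 and 12.71, where the first set had -0.06.

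Of the small supernumerary subunits, which surround the core of complex III, Uqcr10 was called in both directions and Uqcr11 was called higher. By the brightest of its 3 tested probe sets, 1424364_PM_a_at, Uqcr10 fell after KCN at 2 h by 0.28 ± 0.07 (adjusted p = 0.0111), with 11.63, 11.71, 11.57 and 11.58 against 11.90, 11.94 and 11.85 in 3 saline arrays. It rose at KCN 24 h by 0.27 ± 0.07 (adjusted p = 0.00403), with 11.60, 11.51, 11.59 and 11.66 against 11.35, 11.27, 11.37 and 11.30. It fell at HCN 2 h by 0.29 ± 0.07 (adjusted p = 0.000774), with 11.56, 11.36, 11.70 and 11.66 against 11.87, 11.81, 11.97 and 11.79. In none of the 3 did the groups overlap. The other 2 sets, both dimmer, were called in none of the 9 comparisons: 1434341_PM_x_at had -0.19, 0.05 and -0.10 and 1434340_PM_at had -0.05, 0.05 and 0.08 in the same 3. Across the saline groups, which differ in time and in actin ratio, the mean of 1424364_PM_a_at varied by 0.58, more than any of these changes. The fall at KCN 2 h lost its call without saline array 2 (-0.25). The 18S rRNA control signal was 11.16, 11.03 and 10.26 in the saline 2 h arrays and 12.54, 12.57, 12.47 and 12.63 in KCN 2 h. The log2 of the summed signals of the lung and airway markers was 5.19 to 13.12 in KCN 2 h and 5.15 to 5.26 in saline 2 h. That of the fat markers was 8.76 to 12.23 against 9.12 to 9.37. The part of these in the KCN 2 h calls was not tested. Uqcr11 rose at KCN 24 h by 0.22 ± 0.05 (adjusted p = 0.00277), with 12.44, 12.28, 12.32 and 12.38 above 12.09, 12.10, 12.18 and 12.18 in saline. Uqcrb and Uqcrq, 2 more of the small subunits, ranged from -0.26 to 0.21 and from -0.18 to 0.06 with no call.

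The catalytic head of ATP synthase, F1, makes ATP on its alpha and beta subunits around a rotating shaft of gamma, delta and epsilon. Atp5a1, the alpha subunit, had 12.62, 12.26, 12.72 and 12.64 at HCN 2 h against 12.74, 12.96, 12.95 and 12.87 in air, and fell by 0.32 ± 0.05 (adjusted p = 1.12e-05). The groups did not overlap, and 1 HCN array lay below the other 3. Atp5b, the beta subunit, had changes from -0.13 at KCN 1 h to 0.03 at KCN 4 h, and the bright probe set of Atp5c1, the gamma subunit, had -0.08 at KCN 4 h to 0.09 at HCN 2 h, none of them called. A second, dim probe set of Atp5c1 (1438809_PM_at) fell by 0.54 ± 0.15 after KCN at 1 h (adjusted p = 0.0187), with 3.22, 2.90, 2.87 and 3.07 against 3.38, 3.59, 3.47 and 3.81. These signals straddle the filter threshold of 3.23, where the bright set of the same gene had -0.03. Its call was lost without saline array 2 (-0.53) or 4 (-0.46) or KCN array 2 (-0.51) or 3 (-0.50).

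Atp5d, the delta subunit, gave opposite calls in 2 comparisons. At KCN 24 h both of its probe sets rose. The brighter, 1456580_PM_s_at, had 12.24, 12.09, 12.19 and 12.10 against 11.89, 12.02, 11.89 and 11.97 in saline, a rise of 0.21 ± 0.05 (adjusted p = 0.0027) that held in each of 15 alternatives. The other, 1423716_PM_s_at, rose by 0.29 ± 0.07 (adjusted p = 0.00592). At HCN 2 h the latter fell by 0.35 ± 0.07 (adjusted p = 0.000338), with 11.86, 11.45, 12.05 and 12.10 against 12.19, 12.29, 12.33 and 12.05 in air, where the groups overlap and the brighter set had -0.12. Without HCN array 2 the fall was 0.21 and still called. Atp5e, the epsilon subunit, ranged from -0.19 to 0.11 with no call.

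The ring of subunit c turns in the membrane as protons pass, and 3 genes encode the same mature protein. Atp5g3 had 12.70, 12.56, 12.88 and 12.77 at KCN 8 h against 12.99, 12.96, 12.85 and 12.85 in saline, and fell by 0.19 ± 0.04 (adjusted p = 0.0447) with overlapping groups. That call was lost without saline array 1 (-0.16) or 2 (-0.17) or KCN array 1 (-0.17) or 2 (-0.13). At HCN 2 h Atp5g3 rose by 0.15 ± 0.04 (adjusted p = 0.0092), with 13.16, 13.04, 13.15 and 13.18 against 12.92, 13.01, 13.06 and 12.93, where the groups overlap at 1 pair of arrays. Atp5g2 fell in 3 comparisons, which no other probe set but that of Uqcr10 matched in number of calls. At KCN 4 h it had 11.02, 10.91 and 11.12 against 11.32, 11.21 and 11.39 in saline, a fall of 0.29 ± 0.08 (adjusted p = 0.0437) with 3 arrays a group and no overlap. At HCN 24 h it had 11.39, 11.21, 11.17 and 11.62 against 11.70, 11.62, 11.67 and 11.63, a fall of 0.31 ± 0.07 (adjusted p = 0.00161). At HCN 2 h it fell by 0.22 ± 0.07 (adjusted p = 0.0209), and without HCN array 2 the change was -0.11 and not called. The HCN 2 h call was also lost without air array 1 (-0.20) or 2 (-0.19), and the KCN 4 h call without saline array 1 (-0.28), 2 (-0.34) or 3 (-0.25) or KCN array 1 (-0.29) or 2 (-0.24). The lung and airway list was at 10.18 to 13.29 in KCN 4 h and 5.30 to 5.43 in saline 4 h, the fat list at 10.65 to 11.34 against 9.18 to 9.97, and the macrophage list at 8.21 to 8.68 against 7.99 to 8.09. The actin ratio was 0.590 against 0.860. With it as a covariate the KCN 4 h fall was 0.35 and still called, and the part of the marker lists was not tested. The bright probe set of Atp5g1 ranged from -0.13 at KCN 1 h to 0.01 at HCN 4 h with no call, and its dim set from -0.56 to 0.72.

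The peripheral stalk holds the head still against the turning ring. Atp5o, its subunit OSCP, was measured by 2 probe sets. In 1437164_PM_x_at the HCN 2 h arrays had 11.65, 11.71, 11.47 and 11.69 and air had 11.05, 10.92, 10.93 and 10.57. All 4 HCN arrays lay above all 4 air arrays, and it rose by 0.76 ± 0.14 (adjusted p = 4.3e-05), a fold of 1.70 and the largest called change of the members. The brighter set, 1416278_PM_a_at, had -0.02 in the same comparison and ranged over the 9 comparisons from -0.10 to 0.03. The set that rose ends in _x_at, as that of Sdhd does, so signal of another transcript cannot be told apart from that of Atp5o. The Sdhd, Atp5o and second Uqcrc2 probe sets also moved with time in the controls. Their air group means at 1, 2, 4 and 24 h were 10.59, 10.87, 11.30 and 11.30 for Atp5o, 7.82, 7.89, 8.12 and 8.25 for Sdhd, and 12.10, 12.19, 12.44 and 12.54 for Uqcrc2. At HCN 4 h their levels were 11.38, 8.15 and 12.49, within 0.08 of air.

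Atp5h, stalk subunit d, was called in opposite directions by its 2 probe sets at HCN 2 h. The set 1423676_PM_at fell by 0.13 ± 0.04 (adjusted p = 0.021), with 12.76, 12.59, 12.76 and 12.83 against 12.81, 12.88, 12.91 and 12.84. The set 1435112_PM_a_at rose by 0.20 ± 0.05 (adjusted p = 0.00432), with 12.92, 12.97, 12.82 and 12.85 against 12.73, 12.73, 12.66 and 12.63. The fall was not called without HCN array 2 (-0.08) or air array 3 (-0.11). Atp5j, coupling factor 6, had 12.30, 12.21, 12.38 and 12.38 at KCN 24 h against 12.19, 12.09, 12.15 and 12.11 in saline and rose by 0.18 ± 0.06 (adjusted p = 0.022). At HCN 24 h it had 12.31, 12.22, 12.33 and 12.47 against 12.52, 12.49, 12.45 and 12.53 and fell by 0.16 ± 0.06 (adjusted p = 0.0382). The rise was lost without saline array 2 (0.17) or 4 (0.17) or KCN array 3 (0.16) or 4 (0.16). The fall was lost without air array 1 (-0.16), 2 (-0.17) or 4 (-0.15) or HCN array 1 (-0.16), 2 (-0.12) or 3 (-0.16). Atp5pb, subunit b, ranged from -0.16 to 0.15 with no call.

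The small membrane subunits e, f and g and the proteolipids help ATP synthase form the rows of dimers that shape the inner membrane. Atp5l, subunit g, had 12.01, 11.59, 12.39 and 12.30 at HCN 2 h against 12.52, 12.62, 12.64 and 12.45 in air, and fell by 0.49 ± 0.07 (adjusted p = 1.36e-06), that is by 28.6%. It had the lowest adjusted p of the members, and 2 of the 4 HCN arrays lay well below the other pair. Atp5j2, subunit f, fell in different comparisons by its 2 probe sets. At KCN 2 h 1416269_PM_at fell by 0.17 ± 0.05 (adjusted p = 0.029), with 12.38, 12.37, 12.35 and 12.29 against 12.56, 12.54 and 12.43. At KCN 24 h 1435395_PM_s_at fell by 0.18 ± 0.04 (adjusted p = 0.00212), with 12.55, 12.67, 12.62 and 12.67 against 12.75, 12.69, 12.87 and 12.90, and the other set had -0.04. The KCN 24 h fall held in each of 15 alternatives, while the KCN 2 h call was lost without saline array 1 (-0.14) or 2 (-0.15) or KCN array 4 (-0.15). Atp5mpl, a small proteolipid, fell at KCN 2 h by 0.25 ± 0.08 (adjusted p = 0.035), with 11.67, 11.75, 11.76 and 11.65 against 12.02, 11.93 and 11.91. That call was lost without any 1 of the 3 saline arrays (-0.21 to -0.27) or without KCN array 1 (-0.23) or 4 (-0.23). Atp5k, subunit e, rose at KCN 24 h by 0.20 ± 0.06 (adjusted p = 0.0296) and 0.14 ± 0.05 (adjusted p = 0.038) in its 2 probe sets. Both calls were lost without saline array 1 (0.17 and 0.09) or KCN array 1 (0.18 and 0.14) or 3 (0.17 and 0.13), the first also without saline array 4 (0.15) and the second without KCN array 4 (0.14). Atp5md, the subunit DAPIT, ranged from -0.14 to 0.10 with no call.

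**Figure D4:**
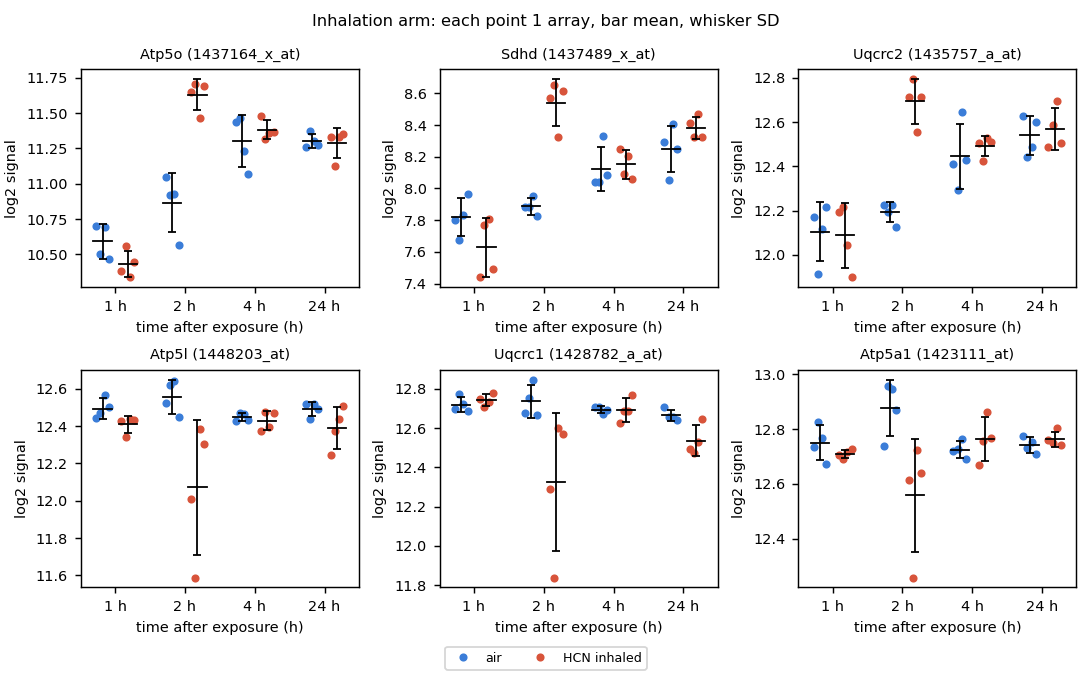
Log2 signal of 6 probe sets in each array of the inhalation arm, by hours after exposure, with air in blue and HCN in red, the bar at the group mean and the whisker at the SD. At 2 h all HCN arrays of Atp5o, Sdhd and Uqcrc2 (upper row) lie above air, while in Atp5l, Uqcrc1 and Atp5a1 (lower row) they spread downward, to 11.59, 11.84 and 12.26.

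The HCN 2 h group stood apart in the actin ratio and in how far probe sets of 1 gene disagreed. Its arrays had actin ratios of 1.49, 1.95, 0.79 and 0.64, against 0.32 to 0.65 in air 2 h (exact permutation test, two-sided, p = 0.0571, adjusted p = 0.128 over the 9 comparisons). The same ratio for the Gapdh controls averaged 0.379 in the HCN 2 h arrays and -0.15 in their controls, and 0.194 in those of HCN 24 h and -0.03 in theirs (exact permutation test, two-sided, p = 0.0286 and adjusted p = 0.129 for each), while at KCN 24 h it was 0.018 against 0.054 (exact permutation p = 0.4). Over the 11 genes with several tested probe sets, the median gap between the highest and the lowest change of a gene was 0.33 at HCN 2 h, with a maximum of 0.78 for Atp5o. It was 0.05 at HCN 4 h and between 0.07 and 0.15 in the other comparisons. Arrays 1 and 2, with the highest actin ratios, also had the lowest signals of Atp5l, Uqcrc1 and Atp5d. With the actin ratio as a covariate, 5 members were higher and 1 lower at HCN 2 h in place of 5 and 10, and 10 of the 15 calls were lost. Atp5o rose by 0.94, Sdhd by 0.63, Uqcrc2 by 0.49 and Atp5g3 by 0.18, and Atp5a1 fell by 0.18, with their calls kept. Atp5l then had -0.15, Uqcrc1 -0.11, Atp5d -0.05, Uqcr10 -0.11, Sdha -0.21, Sdhaf2 -0.24 and Sdhb -0.07, none of them called, and neither were Atp5g2 (-0.05) and the fall (-0.03) and rise (0.16) of Atp5h. Without arrays 1 and 2, an alternative chosen after seeing the data, 5 were higher and 5 lower, 9 of these 10 among the 15. The 6 calls lost were those of Atp5g2 (-0.13), Sdhb (-0.08), Atp5d (-0.14), Uqcr10 (-0.18) and both sets of Atp5h (-0.07 and 0.15). Fitted with the arrays of HCN 2 h and air 2 h alone, 5 members were called. The share of all probe sets called under these alternatives is not given here. What the actin ratio stands for in these arrays was not tested.

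**Figure D5:**
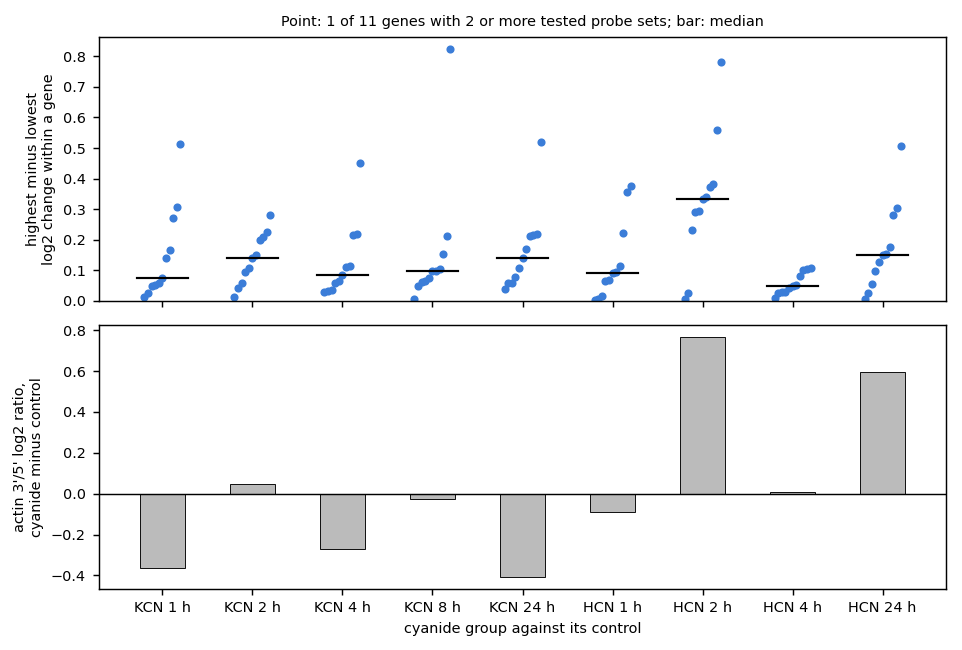
Upper panel: for each of 11 genes with several tested probe sets, the highest minus the lowest log2 change among them, by comparison, with a bar at the median. Lower panel: the group mean of the actin 3'/5' log2 ratio, cyanide minus control. The median gap is largest at HCN 2 h (0.33), where the actin ratio also differs most (0.77).

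At 24 h the actin ratio differed in opposite directions in the arms, 0.473 in KCN against 0.878 in saline and 0.979 in HCN against 0.386 in air (exact permutation test, two-sided, p = 0.0286 for each, the smallest that 4 against 4 arrays allow, adjusted p = 0.0858 over the 9 comparisons). The KCN 24 h count fell to 6 without KCN array 3, and the HCN 24 h count to 1 or 2 without air array 2 or 3 or HCN array 1, 2 or 3, and rose to 9 without HCN array 4. At KCN 24 h, 7 higher and 3 lower became 1 higher and 6 lower with the actin ratio as a covariate, and 4 of the 10 calls remained: Atp5d (0.23), Uqcrc2 (-0.23), Atp5j2 (-0.20) and Sdhd (-0.37). The rises lost were those of the other Atp5d set (0.13), Uqcr10 (0.18), Uqcr11 (0.13), Atp5j (0.15) and both sets of Atp5k (0.14 and 0.10). At HCN 24 h, 2 higher and 2 lower became 2 and 0, with Atp5g2 at -0.18, Atp5j at -0.11 and Sdha at 0.12 not called and Uqcrc2 at 0.19 called. How the calls of all probe sets moved under that covariate is not given here. Markers of other cells moved in the same comparisons. At KCN 24 h 2 of 4 macrophage markers were called higher, with the log2 of the summed signals at 8.07 to 8.36 against 7.67 to 7.94 in saline. Col3a1 of 4 fibroblast and Tie1 of 4 endothelial markers were also called higher, and Myl3 of 7 ventricular markers was lower. The fat list was at 10.06 to 12.15 against 8.67 to 10.43, with 0 of 5 called by limma and 4 at an unadjusted p under 0.05. The lung and airway list was at 5.24 to 12.96 against 5.15 to 11.12, with 0 of 5 called by limma and 0 at an unadjusted p under 0.05. In HCN 2 h hearts 2 of 4 fibroblast markers were higher (13.47 to 13.59 against 13.15 to 13.37 in air) and 2 of 4 endothelial markers lower (8.98 to 9.53 against 9.55 to 9.73), Adgre1 of 4 macrophage markers was higher, and Tnnt2 was higher and Tnni3 lower among the ventricular markers. At HCN 24 h Pecam1 and Csf1r were lower and Cd163 higher. The lung and airway list was there at 9.56 to 13.70 against 5.35 to 13.38 in air, with 0 of 5 called by limma and 0 at an unadjusted p under 0.05. Of the atrial, erythroid and skeletal muscle lists, with 3 genes tested in each, 0 were called by limma in any of the 9 comparisons. An unadjusted p under 0.05 was found in 0, 1 and 0 tests. The log2 of their summed signals was 13.77 to 14.48, 13.24 to 14.23 and 5.38 to 6.19 over all arrays. The skeletal muscle sum covers 6 genes, and Hba-a1, with group means of 13.44 to 13.82, makes up most of the erythroid sum. The part of all these markers in the members' changes was not tested.

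Averaged over the times, fewer members were called after KCN than after HCN, as among all probe sets. With the actin covariate the order of the member counts was reversed. Over the 5 times of KCN 4 of 45 were lower and 0 higher (8.89%), where 9.52% of all probe sets were called, 5.07% higher and 4.45% lower. Atp5g3 was lower by 0.09 ± 0.02 (adjusted p = 0.00481), which held in each of 44 alternatives, and Sdha (1426689_PM_s_at) by 0.09 ± 0.02 (adjusted p = 0.00999) and Atp5g1 by 0.08 ± 0.02 (adjusted p = 0.0126). The Sdha call was lost with the actin ratio as a covariate (-0.08) and that of Atp5g1 under quantile normalization (-0.05). Lung and fat markers were higher over the same contrast, 4 of 5 each. Over the 4 times of HCN 2 were higher and 10 lower (26.7%), where 21.5% of all were called, 7.4% higher and 14.1% lower. Atp5l was lower by 0.17 ± 0.04 (adjusted p = 0.000299) and Uqcrc1 by 0.13 ± 0.04 (adjusted p = 0.00566). With the actin ratio as a covariate 0 of 45 were called by limma for HCN, while the KCN count rose above 4. The share of all probe sets called in that fit is not given here, so these counts are not set against it. Without HCN 2 h arrays 1 and 2 the HCN count was 4. Leaving out HCN 2 h array 2 alone gave 6, air 1 h array 2 gave 7 and HCN 4 h array 1 gave 7.

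The effects in the arms were compared as the HCN change minus the KCN change at the same time, which sets no level of one arm against the other. Route, compound, dose, control and the signal distribution of the arm differ together and cannot be told apart. The 2 h difference also uses the saline 2 h arrays, whose 18S rRNA control signal was 10.26 to 11.16, against 12.47 to 12.63 in KCN 2 h. At 1 h 0 of 45 members differed by limma, where 0.198% of all probe sets differed. An unadjusted p under 0.05 was found for 7 of the 45, for 2330 of all 26755 and for 89 of the 631 bright probe sets. At 4 h it was 0 again, where 1.87% of all differed. There 5 of the 45, 4408 of all 26755 and 96 of the 631 bright probe sets had an unadjusted p under 0.05. At 2 h 3 differed upward and 3 downward, which is 13.3% of the members, against 5.74% of all in either direction and 13.5% of the bright probe sets. Under quantile normalization the split was 3 and 5, and without saline 2 h array 2 the count was 3. Atp5o by its set 1437164_PM_x_at (1.01 ± 0.21, adjusted p = 0.00231) was the largest, with 0.76 after HCN and -0.25 after KCN. Sdhd (0.65 ± 0.17, adjusted p = 0.0133) and Atp5a1 (-0.34 ± 0.08, adjusted p = 0.00721) were called after HCN and stood at 0.00 and 0.02 after KCN. Both differences lost their calls with the actin ratio as a covariate (0.62 and -0.20), without HCN 2 h arrays 1 and 2 (0.58 and -0.21) and when the compared groups were fitted alone. That of Atp5o was lost in the last of these only. At 24 h 7 differed upward and 6 downward (28.9%), against 18.8% of all and 26.6% of the bright probe sets. Uqcrc2 (0.32 ± 0.06, adjusted p = 0.000187) and Atp5j (-0.35 ± 0.08, adjusted p = 0.000952) had been called in opposite directions in the arms. In the other 11, 1 arm or neither had been called. Atp5g2 was at -0.31 after HCN and 0.20 after KCN, a difference of -0.51 ± 0.10 (adjusted p = 0.000196). With the actin ratio as a covariate 4 of the 13 differences at 24 h remained, those of Uqcrc2 (0.42), Atp5j2 (0.27), Uqcrfs1 (0.31) and Sdhaf2 (0.60).

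Genes that assemble or serve these complexes were taken from a list of 32, of which 25 were measured, each by its brightest probe set. After KCN, 1 was called at 2 h, 1 at 4 h and 1 at 8 h, and at 24 h 5 were higher and 2 lower (28%), where 11.9% of all probe sets were called. Coq9, needed to make ubiquinone, rose there by 0.33 ± 0.05 (adjusted p = 2.77e-05), and Slc25a3, the carrier that brings phosphate to ATP synthase, fell by 0.17 ± 0.04 (adjusted p = 0.00585). After HCN at 2 h 1 was higher and 6 lower (28%), where 25.3% of all probe sets were called. Atpaf2, a chaperone for the alpha subunit, fell by 0.69 ± 0.14 (adjusted p = 0.000115) and had risen at KCN 24 h by 0.47 ± 0.14 (adjusted p = 0.0153). Dhodh, which feeds electrons to ubiquinone from pyrimidine synthesis, fell by 0.65 ± 0.14 (adjusted p = 3e-04), and Atpif1, the inhibitor that stops ATP synthase from running backwards, rose by 0.43 ± 0.11 (adjusted p = 0.00304). At HCN 24 h 3 were higher and 2 lower (20%, against 14.3% of all), and at 1 h by either route and at HCN 4 h 0 of the 25 were called by limma, with 1 at an unadjusted p under 0.05 in each. For the neighbouring complexes, whose shares were not tested against those of the members, at HCN 2 h 33 of 72 probe sets of complex I (45.8%) and 11 of 28 of complex IV (39.3%) were called, and at KCN 24 h 12 (16.7%) and 7 (25%).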

How the data were processed

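RNA (100 ng per heart, per the labels' protocols) was hybridised to Affymetrix HT MG-430 PM arrays, 1 per mouse. The authors deposited processed log2 values, from 1.83 to 13.94, the scale being read from the values. MAS5 is named in the submitters' processing notes, with no version. No source used here gives scan dates or batches. The 95th percentile of an array had a median of 9.24 in the injection arm and 9.51 in the inhalation arm, so levels were compared within an arm only. Values were used as deposited, with 0 columns left unused. Probe sets were named by the platform annotation: 28898 carry 1 symbol, 551 several and 15588 none, and none was named from several. Uqcrh is not analysed here.

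Probe sets with a group mean above 3.23, the median of all group means, were kept (26755). limma 3.58.1 (R 4.3.3, data.table, version 1.17.8) fitted all 69 arrays in 18 groups with an intensity trend (51 residual and 5.53 prior degrees of freedom). Tests were two-sided, with Benjamini-Hochberg adjustment per comparison. The steps were tested on simulated data. P-values measure the spread between the labelled replicates. Alternatives were quantile normalization, median centring, no filter, no trend, a replicate block, the actin ratio as a covariate, the compared groups alone, each array left out and, chosen after seeing the data, HCN 2 h without arrays 1 and 2.

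The members and gene lists were chosen with earlier results of these data known. Named with values were up to 4 called probe sets per direction and comparison by lowest p, with all cyanide arrays on 1 side of the control mean and up to 2 genes per complex. A fixed set of subunits and the Sdhaf genes were named in every case, as were genes whose probe sets disagreed. Other members were named after their values were seen. Promoter windows are RefSeq's on GRCm38.p6.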

Additional observations from a re-analysis of the deposited data

Results flagged for a closer look

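Each called probe set was looked at in the groups of 4 arrays of its comparison, 69 sets of 4 values in all. An array stood far from the other 3 in 1 of the 69, where chance flags about 1 in 20. Atp5g2 had a log2 signal of 11.20 in HCN 2 h array 2, against 11.58 to 11.65 in the other 3.

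The effect of HCN minus that of KCN at the same time passed the limma test of the difference for 6 probe sets at 2 h. It was 1.01 for Atp5o, 0.65 for Sdhd, 0.46 for Uqcrb, -0.30 for Sdha, -0.34 for Atp5a1 and -0.37 for Atp5l. For Uqcrb neither arm had a call of its own, with 0.21 after HCN and -0.25 after KCN.

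At 24 h it passed for 13. It was 0.52 for Sdhd, 0.42 for Sdhaf2 (1452941_PM_at), 0.41 for Sdhaf4, 0.32 for Uqcrc2, 0.24 for Sdha, 0.20 for Atp5j2 and 0.17 for Uqcrfs1. It was -0.22 for Uqcr11, -0.28 for Uqcrc1, -0.35 for Atp5j, -0.40 for Uqcr10, -0.48 for Atp5d and -0.51 for Atp5g2. The actin ratio differed in opposite directions between the arms at this time, and its part in these differences was not tested beyond the covariate.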

How the results depend on the processing

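Counts are of the 45 members called. They are given without the share of all probe sets called under the same alternative. Quantile normalization gave 0 at KCN 8 h and 0 at HCN 1 h. Median centring gave 0 at KCN 4 h and KCN 8 h, and 2 for HCN at 24 h, as did testing with no filter. With no intensity trend it was 1 at KCN 2 h, 0 for KCN at 4 and 8 h and HCN at 1 h, and 1 at HCN 24 h. With the actin ratio as a covariate it was 7 for KCN at 1 h and 2 at 4 h, 2, 6 and 2 for HCN at 1, 2 and 24 h, 11 for the KCN average, 0 for the HCN average, and 3, 2 and 4 for the route differences at 2, 4 and 24 h. That covariate also turned the Uqcrc1 route difference at 24 h from -0.28 to 0.11. Fitting the compared groups alone gave 0 at KCN 2 h, 4 h and 8 h and HCN 1 h, 5 at HCN 2 h, 1 at HCN 24 h and 0 for the 2 h route difference. Without HCN 2 h arrays 1 and 2 the HCN average had 4 and the 2 h route difference 2. All of these are limma counts, and the causes were not tested.

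Leaving out 1 array gave 1 to 3 at KCN 1 h, 0 to 4 at 2 h, 0 to 1 at 4 h, 0 to 1 at 8 h and 6 to 12 at 24 h. It gave 0 to 2 at HCN 1 h, 13 to 19 at 2 h and 1 to 9 at 24 h, 4 to 6 for the KCN average, 6 to 15 for the HCN average, and 3 to 9 and 9 to 13 for the route differences at 2 and 24 h.

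Of the 37 calls, 7 held in every alternative run: Sdhc at KCN 1 h, Uqcrc2, Atp5j2 and Atp5d (1456580_PM_s_at) at KCN 24 h, and Atp5o, Sdhd and Uqcrc2 at HCN 2 h. The actin covariate ended 20, the compared groups alone 21 and a single left-out array 17.

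Same-numbered arrays did not deviate together: of 34 pairs 9 correlated above 0.1 (-0.14 to 0.32), and in 0 comparisons did every pair. With the replicate number as a block KCN 8 h had 0 calls in place of 1 and the HCN average 11 in place of 12.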
